A study of Mus musculus with 34 samples.

Results

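The replication-dependent histone genes supply the bulk of the chromatin protein that a dividing cell needs during DNA synthesis. They lie in clusters and are named after the cluster and the histone they encode: the linker histone H1, or the core histones H2A, H2B, H3 and H4, which together form the nucleosome. Their transcripts typically end in a conserved RNA stem-loop in place of a poly(A) tail. The stem-loop binding protein SLBP recognises that hairpin, and a dedicated nuclear machinery cuts the transcript just behind it. Some copies also give polyadenylated transcripts, and growing oocytes store histone messages for the first cleavages.

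The 70 members were all genes in the deposited tables whose symbol begins with Hist1h, Hist2h, Hist3h or Hist4h, of 58071 symbols listed in any table. They comprised 6 H1, 20 H2A, 19 H2B, 12 H3 and 13 H4 genes, and 67 of them are annotated as protein coding in GENCODE M21 on GRCm38. Of the 70, 56 lie on chromosome 13, 10 on chromosome 3, 3 on chromosome 11 and 1 on chromosome 6. The zygote and late 2-cell tables listed 69 of them, and the processed pseudogene Hist3h2bb-ps was listed for blastocysts alone.

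They were followed in single mouse embryos that had been injected as zygotes with mRNA for wild-type (WT) CHK1, a kinase of the DNA damage checkpoint, or for its mutant R442Q. There were 5 WT and 6 R442Q zygotes and 4 WT and 5 R442Q late 2-cell embryos, all without inhibitor. There were also 7 WT and 7 R442Q blastocysts, all grown in KSOM medium with a CHK1 inhibitor at 30 nM. The genotype words name the injected mRNA, so both groups carried extra CHK1 message, and the embryos' own gene was not stated to be altered. Each library was 1 whole embryo, without its zona pellucida, so less RNA per cell and fewer cells of a type cannot be told apart, and p-values measure the spread between these embryos. cDNA was made by SMART-seq2, which primes on poly(A), so a level below is the level of members in poly(A)-primed cDNA.

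Total counts ran from 7183632 to 11296522 per zygote and from 5727956 to 8916343 per late 2-cell embryo. Blastocysts were read in FPKM (fragments per kilobase of transcript, scaled to the library total) alone, and their depth is unknown in counts. Chek1, the injected gene, stood at 4593 to 8653 CPM (counts scaled to the library total) in WT zygotes and at 5597 to 7171 in R442Q zygotes, so its level does not tell the genotypes apart. It was 396.2 to 674.9 and 259 to 720 CPM at the late 2-cell stage, and 7.05 to 38.3 and 13.3 to 23.6 FPKM in blastocysts. Of 15 cumulus cell markers, the summed level was 42.4 to 49.1 CPM in WT and 30.4 to 41.9 in R442Q zygotes, and 71.3 to 118.4 and 19.3 to 99.4 CPM in late 2-cell embryos. Fshr, Inhba and Hsd3b1 were at 0 in all late 2-cell embryos, and Amhr2, the most abundant marker there, was lower in R442Q (log2 -1.37, edgeR adjusted p = 0.04999). From zygote to late 2-cell Amhr2 rose by 10.86 in WT and 7.87 in R442Q on the log2 scale. Of 7 markers tested, 2 passed upward and 3 downward in WT, beside 36.2% and 25% of all genes. In R442Q 3 passed upward and 3 downward, beside 35.3% and 29.8%. The part of these markers in the results was not tested. Of 8 sperm markers the sum reached at most 8.61 CPM in any zygote or late 2-cell embryo.

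The hairpins show what the members share and where they differ. A search of each annotated transcript behind its coding end for a hairpin of a 6-base stem and a 4-base loop found one in 46 of 70 members. The search pattern was GG, then C or T at each of 3 places, T, a loop of T in which the second base could be A or C and the last base A or C, and then A, 3 purines and CC. The hairpins below are those of members named in the results, 5′ to 3′ with 5 flanking bases where the annotation holds them. Capitals mark the paired stem and the loop stands between them.

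Hist1h2ap: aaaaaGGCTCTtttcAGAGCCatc
Hist2h2aa1: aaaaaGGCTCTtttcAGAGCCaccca
Hist1h2bk: ccaaaGGCTCTtttaAGAGCCactaa
Hist1h3f: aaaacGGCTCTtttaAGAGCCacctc
Hist1h4c: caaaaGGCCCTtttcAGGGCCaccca
Hist1h4d: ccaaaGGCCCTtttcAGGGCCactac
Hist1h4i: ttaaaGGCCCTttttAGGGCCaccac

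The H4 hairpins stood apart in their stems. The form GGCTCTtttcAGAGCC was found in 26 members, namely 3 H1, 10 H2A, 8 H2B and 5 H3 genes, and in no H4 gene. The next form, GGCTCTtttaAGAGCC, was found in 6 members of H1, H2B and H3. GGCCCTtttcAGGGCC was found in 7 members, all H4, and the other 5 H4 hairpins carried GGCCCT or GGTCCT stems as well. In each of these forms the 2 sides of the stem are complementary.

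The annotated transcripts differed in where they stop. In 22 members the model ended within 60 bases behind the hairpin, at 3 to 57 bases. That limit was set here and does not show where a transcript is cut. In 24 members the model ran further. In the remaining 24 no hairpin was found: 21 of those are coding models, of which 13 stop at the stop codon itself and so hold no sequence in which to search. A polyadenylation signal (AATAAA or ATTAAA) lay in the last 50 bases of 17 members. Among the members named here, the model of Hist1h2ap ends 3 bases after the hairpin and that of Hist1h2bk 30 bases after it, whereas those of Hist1h4d and Hist1h2ac run 770 and 2010 bases past it.

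Many members share sequence. Over all 70, the median share of a member's 50-base stretches that also occur in another annotated gene was 54.6%, and the share exceeded 50% in 36 members. It was 93.1% for Hist1h2ap, and 100% for Hist2h2aa1, Hist2h2aa2 and Hist2h3b. The split of reads between such copies is uncertain. A sum over a histone type lessens this only where the copies are members of that type. The share found in other members was 79.7% for Hist2h3b, 34.7% for Hist2h3c1 and 0% for Hist2h2bb. Over all genes it was 100% for each of these 3. Members with little shared sequence include Hist1h1a and Hist1h1b at 0%, Hist1h4d at 10.2% and Hist1h2ac at 14.1%.

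RefSeq promoters of GRCm38.p6 were matched for 62 members, and the 250 bases before the start were searched on both strands for 3 motifs. The motif CCAAT was in 82.3% of the members' windows and in 33.9% of all 32851 windows of that length. It was in each of the 6 H1, 18 H2A and 16 H2B windows, in 8 of 10 H3 windows and in 3 of 12 H4 windows. TATAAA was in 46.8% of the members' windows and in 12.4% of all windows. ATTTGCAT, the octamer bound by POU factors such as OCT1, was in 20.97% against 1.60%, in 7 H2A and 6 H2B windows and in no window of another type. Hist1h2aa and Hist1h2ba, the testis-type H2A and H2B genes that oocytes also express, lie head to head with their starts 281 bases apart. Their windows share 220 bases and are shown because both genes fell between the zygote and the late 2-cell stage (below). Capitals mark the 3 motifs on either strand, and the 1 octamer lies in the shared bases. The windows are chr13:23934187-23934436 on the plus strand and chr13:23934157-23934406 on the minus strand.

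Hist1h2aa: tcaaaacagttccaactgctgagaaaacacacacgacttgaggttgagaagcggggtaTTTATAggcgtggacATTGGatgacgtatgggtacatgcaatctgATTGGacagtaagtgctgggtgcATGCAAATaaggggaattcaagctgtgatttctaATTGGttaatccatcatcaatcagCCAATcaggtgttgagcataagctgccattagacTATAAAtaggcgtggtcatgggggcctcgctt
Hist1h2ba: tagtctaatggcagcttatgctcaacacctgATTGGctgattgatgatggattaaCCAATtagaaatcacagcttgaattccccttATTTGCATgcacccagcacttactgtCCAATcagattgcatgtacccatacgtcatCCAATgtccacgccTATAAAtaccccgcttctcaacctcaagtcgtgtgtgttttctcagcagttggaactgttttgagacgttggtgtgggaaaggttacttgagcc

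The set of members in use changed from stage to stage. In zygotes 38 of 69 members had a mean FPKM of at least 1 over both genotypes, 15 reached 10 and 2 reached 100. In late 2-cell embryos the numbers were 48, 14 and 1 of 69, and in blastocysts 58, 26 and 4 of 70. Hist1h2ai and Hist1h2al were at 0 in all 11 zygotes, and Hist1h1t, Hist1h2ao, Hist1h2bl, Hist1h4b and Hist2h2ab in all 9 late 2-cell embryos. No member was at 0 in all 14 blastocysts. With 3 counts as the limit that a count of 0 allows, a member at 0 could have had up to 0.418 CPM in the shallowest zygote and 0.524 in the shallowest late 2-cell embryo. These limits cover counting error only. The tables of the stages were normalised separately, and the blastocyst table lists 51734 symbols where the earlier tables list 49686, so levels set across stages also carry those differences.

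Summed over all members, the level was 825 to 1291 FPKM in WT and 707 to 852 in R442Q zygotes. It was 368 to 1712 FPKM in WT and 1286 to 2464 in R442Q late 2-cell embryos, and 5299 to 13142 and 2333 to 11959 FPKM in blastocysts. The members made up 0.0316 to 0.0555% of all counts in zygotes and 0.0174 to 0.0796% in late 2-cell embryos. The H2A sum was 368 to 595 FPKM in WT zygotes and 4199 to 10574 in WT blastocysts, and that of H4 was 48.4 to 73.9 and 590 to 1580. H1 stood at 120.3 to 157.8 FPKM in WT zygotes, at 18.6 to 26.4 in WT late 2-cell embryos and at 48.6 to 193.2 in WT blastocysts. No test was made of these sums.

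**Figure D1:**
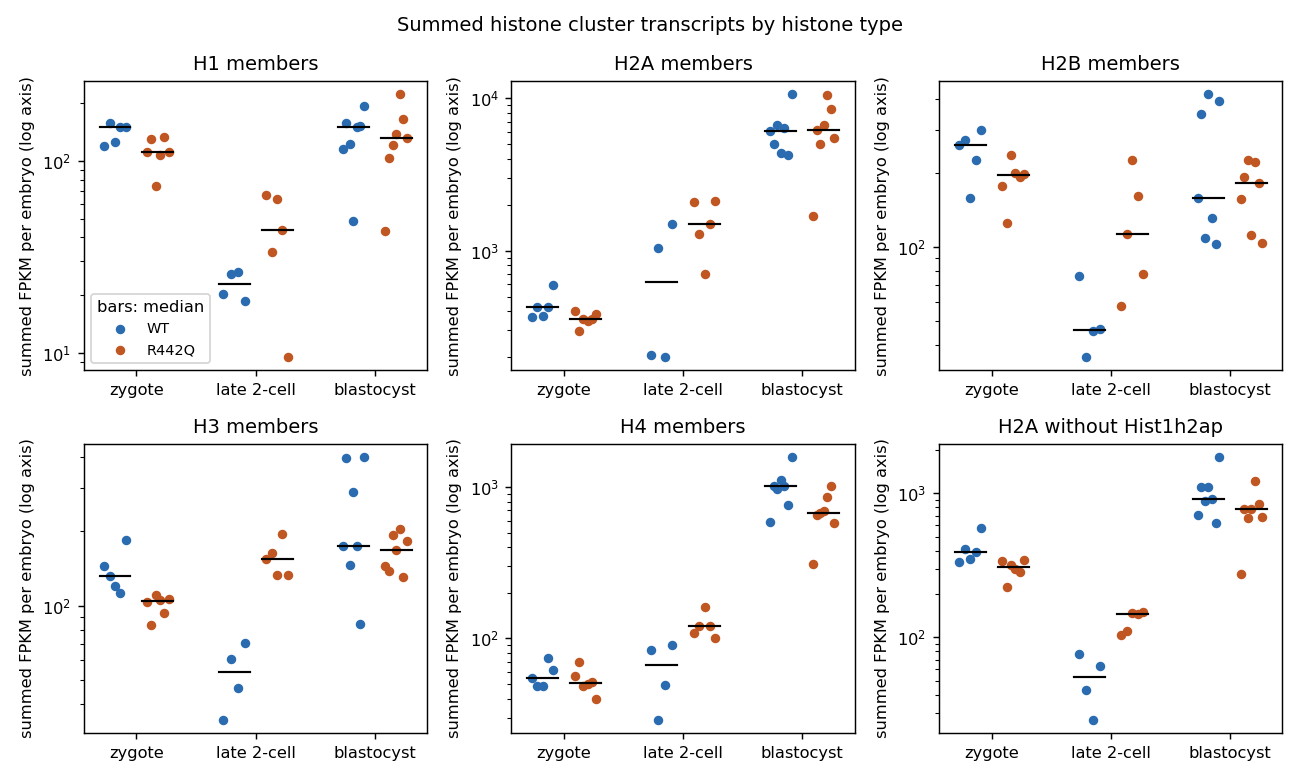
Summed FPKM of the members of each histone type in every embryo (y axis, log scale) by stage (x axis) and injected mRNA (colour), with the median as a bar, and H2A again without Hist1h2ap. At the late 2-cell stage the median sum of each of the 5 types was higher in R442Q than in WT, with no overlap for H3 and H4, and the H2A sums of blastocysts lay between 1680 and 10574.

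By the mean FPKM over both genotypes, the first member differed between the stages for every type but H3. Among linker histones, Hist1h1a stood first in zygotes with 117.2 to 153.4 FPKM in the 5 WT embryos and 71.5 to 128.8 (median 108.6) in the 6 R442Q embryos. It still stood first in late 2-cell embryos, with 9.56, 15.4, 18.7 and 10.8 FPKM in WT and 52.7, 21.1, 62.2, 34.3 and 3.84 in R442Q. In blastocysts Hist1h1b stood first, with 15.3 to 114.7 FPKM (median 81.1) in WT and 21.7 to 105.1 (median 76.8) in R442Q. Hist1h1b was at most 1.45 FPKM in any zygote and at most 11.9 in any late 2-cell embryo. These 2 genes share no 50-base stretch with another gene.

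Among H2A genes, the pair Hist2h2aa1 and Hist2h2aa2 on chromosome 3 led in zygotes and Hist1h2ap led afterwards. Hist2h2aa1 had 148.9 to 350.6 FPKM in WT zygotes and 133.6 to 213.4 (median 170.3) in R442Q zygotes, but 10.4 to 26.8 in WT and 0 to 47.7 in R442Q late 2-cell embryos. Hist1h2ap (chr13:21833026-21833507, minus strand) had 33.1, 18.1, 24.7, 35.3 and 20.2 FPKM in the WT zygotes and 130.4, 994.9, 174.1 and 1422 in the WT late 2-cell embryos. In blastocysts it had 3274 to 8786 FPKM (median 5374) in WT and 1406 to 9249 (median 5338) in R442Q. By its mean, it was rank 3409 of all genes in WT zygotes, 105 in WT late 2-cell embryos and 15 in WT blastocysts. Its median share of all members' FPKM was 2.999% in WT zygotes, 65.2% in WT late 2-cell embryos and 67.4% in WT blastocysts. The late 2-cell WT embryos fell apart in this gene, with embryos 1 and 3 far below embryos 2 and 4.

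Its promoter window, chr13:21833476-21833725 on the minus strand, is shown because it was the most abundant member from the late 2-cell stage on. It holds CCAAT on both strands and neither of the other motifs.

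Hist1h2ap: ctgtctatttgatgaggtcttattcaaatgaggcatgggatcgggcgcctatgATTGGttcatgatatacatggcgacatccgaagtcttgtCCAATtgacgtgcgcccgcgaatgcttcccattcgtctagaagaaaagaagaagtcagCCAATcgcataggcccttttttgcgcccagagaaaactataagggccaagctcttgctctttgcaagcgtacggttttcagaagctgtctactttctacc

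Hist1h2ae, the second H2A gene of blastocysts, was at 0 in 5 of 5 WT zygotes and reached 324.4 to 1080 FPKM in WT blastocysts. Among H2B genes, Hist1h2bk had the highest mean over both genotypes in zygotes and in blastocysts, with 51.9 to 113.6 FPKM in WT zygotes and 7.39 to 161.4 (median 47.9) in WT blastocysts. It had 0 to 9.11 FPKM in WT late 2-cell embryos. There Hist1h2bc led, with 55.7, 0.83, 21.3 and 9.62 FPKM in WT and 3.98, 28.4, 48.1, 64.1 and 7.64 in R442Q. In R442Q alone the mean of Hist1h2bj was higher (31.1 against 30.4 FPKM), and in R442Q blastocysts that of Hist1h2bc was above Hist1h2bk (60.3 against 42.2). The order of the H2B genes is therefore not settled at these stages. Hist1h2bc is annotated with a transcript that extends 742 bases past the stop codon and in which no hairpin was found. Hist2h3b had the highest mean of the H3 genes over both genotypes at every stage, although in WT blastocysts alone Hist1h3c had a higher mean (70.2 against 60.3 FPKM). It had 39.9 to 75.8 FPKM in WT zygotes, 10.5 to 21.8 in WT late 2-cell embryos and 28.7 to 97.7 in WT blastocysts. These ranks are by FPKM, which divides by transcript length. In CPM, which does not, Hist1h3f lay above Hist2h3b in WT zygotes (42.4 to 62.6 against 11.8 to 22.7).

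Among H4 genes the member with the highest mean over both genotypes changed at each stage. In zygotes it was Hist1h4c, with 8.71 to 16.1 FPKM in WT and 11.1 to 18.6 (median 13.6) in R442Q. In WT zygotes alone Hist1h4a, with 7.68 to 17.5 FPKM, overlapped it and had the higher mean (13.2 against 12.5). Hist1h4i (chr13:22040636-22041362, minus strand) led in late 2-cell embryos with 56.6, 11.4, 31.4 and 69.9 FPKM in WT and 63.3, 74.9, 82.0, 37.3 and 46.8 in R442Q. Hist1h4d (chr13:23581598-23582735, plus strand) led in blastocysts with 422.1 to 1134 FPKM (median 747.9) in WT and 255.7 to 838 (median 518.7) in R442Q. Before that stage Hist1h4d had not passed 8.99 FPKM in any embryo. Shared sequence was 28.9% for Hist1h4i and 10.2% for Hist1h4d.

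**Figure D2:**
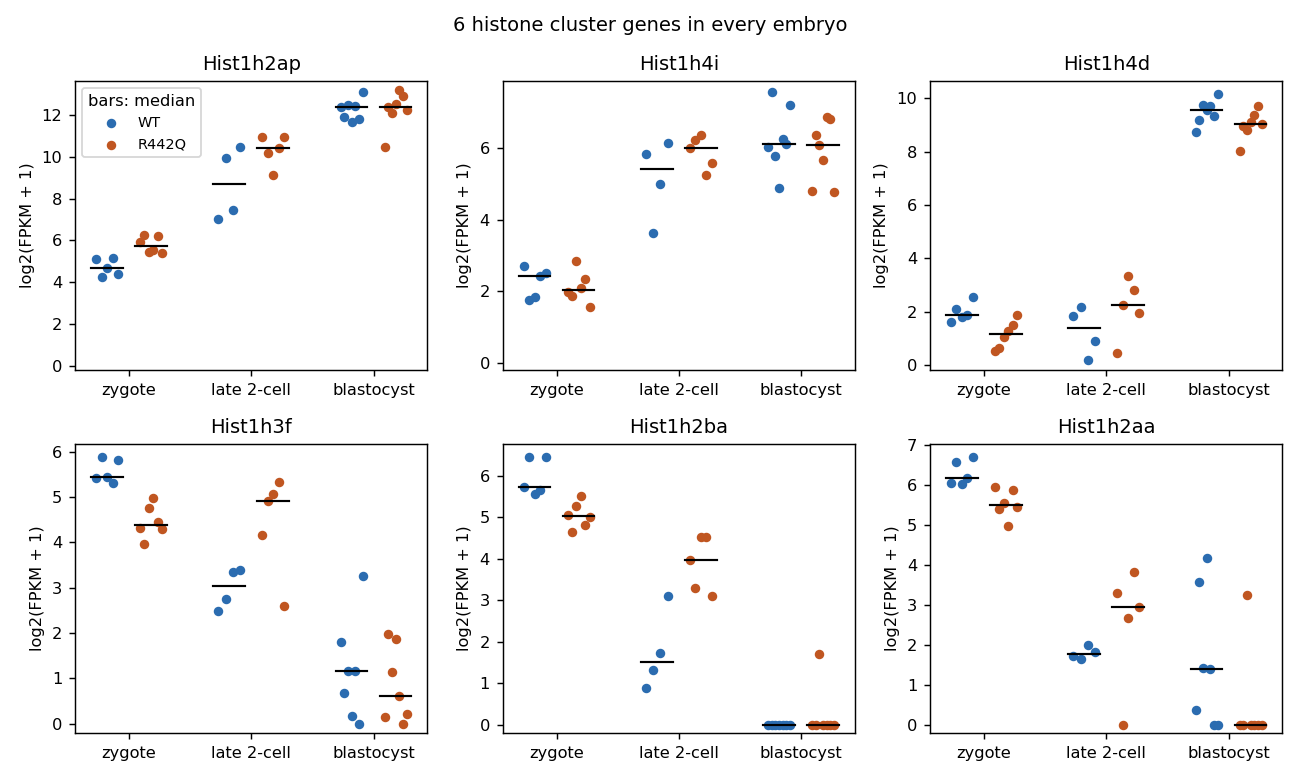
Level of 6 members in every embryo as log2(FPKM + 1) (y axis) by stage (x axis) and injected mRNA (colour), with the median as a bar. In both genotypes the medians of Hist1h2ap and Hist1h4i were higher at each later stage, that of Hist1h4d was highest in blastocysts, and those of Hist1h2ba and Hist1h2aa were highest in zygotes. The median of Hist1h3f was highest in zygotes in WT (42.2 FPKM) and at the late 2-cell stage in R442Q (29.3 FPKM).

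From zygote to late 2-cell in WT embryos, members fell more often than they rose. In edgeR's quasi-likelihood test over the 4 groups of both stages, 40 of 69 members passed the filter on low counts. Of these, 20 passed an adjusted p (Benjamini-Hochberg over all genes) of 0.05, against 61.2% of all 16199 genes tested. Of the 20, 15 fell and 5 rose, against 25% and 36.2% of all genes. The median log2 change of the tested members was -1.42, and that of all tested genes was 0.34. Since each stage came in a table of its own, stage and table are confounded and cannot be told apart.

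The members that fell included H2A, H2B, H1 and H3 genes abundant in zygotes. Hist1h2aa fell from 12.5, 18.5, 13.5, 14.3 and 20.6 CPM in WT zygotes to 0.485, 0.435, 0.617 and 0.510 in WT late 2-cell embryos (log2 -4.99 ± 0.69 SE, edgeR adjusted p = 1.7e-06). Its neighbour Hist1h2ba fell by 4.36 (SE 0.66, edgeR adjusted p = 5.1e-06) from 9.38 to 16.7 CPM to 0.168 to 1.46. Hist2h2aa2 had 21.3, 30.6, 36.7, 15.98 and 34.9 CPM in WT zygotes and 3.17, 1.08, 0 and 0 in WT late 2-cell embryos (log2 -4.81 ± 0.90 SE, edgeR adjusted p = 7.9e-05). Hist1h2bk had 31.4, 24.6, 15.4, 27.4 and 30.4 CPM and then 0.718, 2.66, 0 and 1.48 (log2 -4.45 ± 0.70 SE, edgeR adjusted p = 9.1e-06). In each of these genes every WT zygote lay above every WT late 2-cell embryo. The linker histone Hist1h1a fell by 3.34 and Hist1h3f by 2.73 on the log2 scale.

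The members that rose in WT were Hist1h1b, Hist1h2ae, Hist1h2ap, Hist1h3h and Hist1h4i. Hist1h2ap rose from 9.35, 5.24, 7.49, 10.4 and 5.91 CPM to 39.6, 296.1, 52.8 and 417.3 (log2 4.68 ± 0.57 SE, edgeR adjusted p = 2.4e-07). Hist1h4i rose from 2.98, 1.27, 1.43, 2.42 and 2.59 CPM to 31.7, 6.32, 17.7 and 38.5 (log2 3.37 ± 0.48 SE, edgeR adjusted p = 2.6e-06). The groups did not overlap in either gene. Hist1h2ae was at 0 in all WT zygotes and was at least 4.95-fold higher in WT late 2-cell embryos, with the floor set at 3 counts per library.

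In R442Q embryos 18 of the 40 members passed between the same stages (65.1% of all genes did), and 9 rose and 9 fell (35.3% and 29.8% of all genes). With a trend on transcript length and GC content removed from each library, 6 rose and 14 fell, beside 5856 and 4570 of all 16199 genes. The median log2 change of the tested members was -0.08, beside 0.22 over all genes. The members' median was -1.01 with the length and GC trend removed, -0.49 with a replicate block, and 0.04 with DESeq2-type size factors, where that of all genes was 0.34. Its sign therefore depends on the scaling. The 5 members that rose in WT rose in R442Q as well, and 9 of those that fell in WT fell too. Hist1h2ap rose by 4.39 ± 0.51 (SE) and Hist1h4i by 3.85 ± 0.45 on the log2 scale. The H3 genes Hist1h3c, Hist1h3e, Hist1h3g and Hist1h3h passed upward, and no H3 or H4 gene passed downward. Hist1h3h was at 0 in all 6 R442Q zygotes and was at least 7.72-fold higher in the late 2-cell embryos. Hist1h2ac and Hist1h1d were at 0 in all 5 R442Q late 2-cell embryos and were at least 9.92-fold and 1.91-fold lower there than in zygotes.

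**Figure D3:**
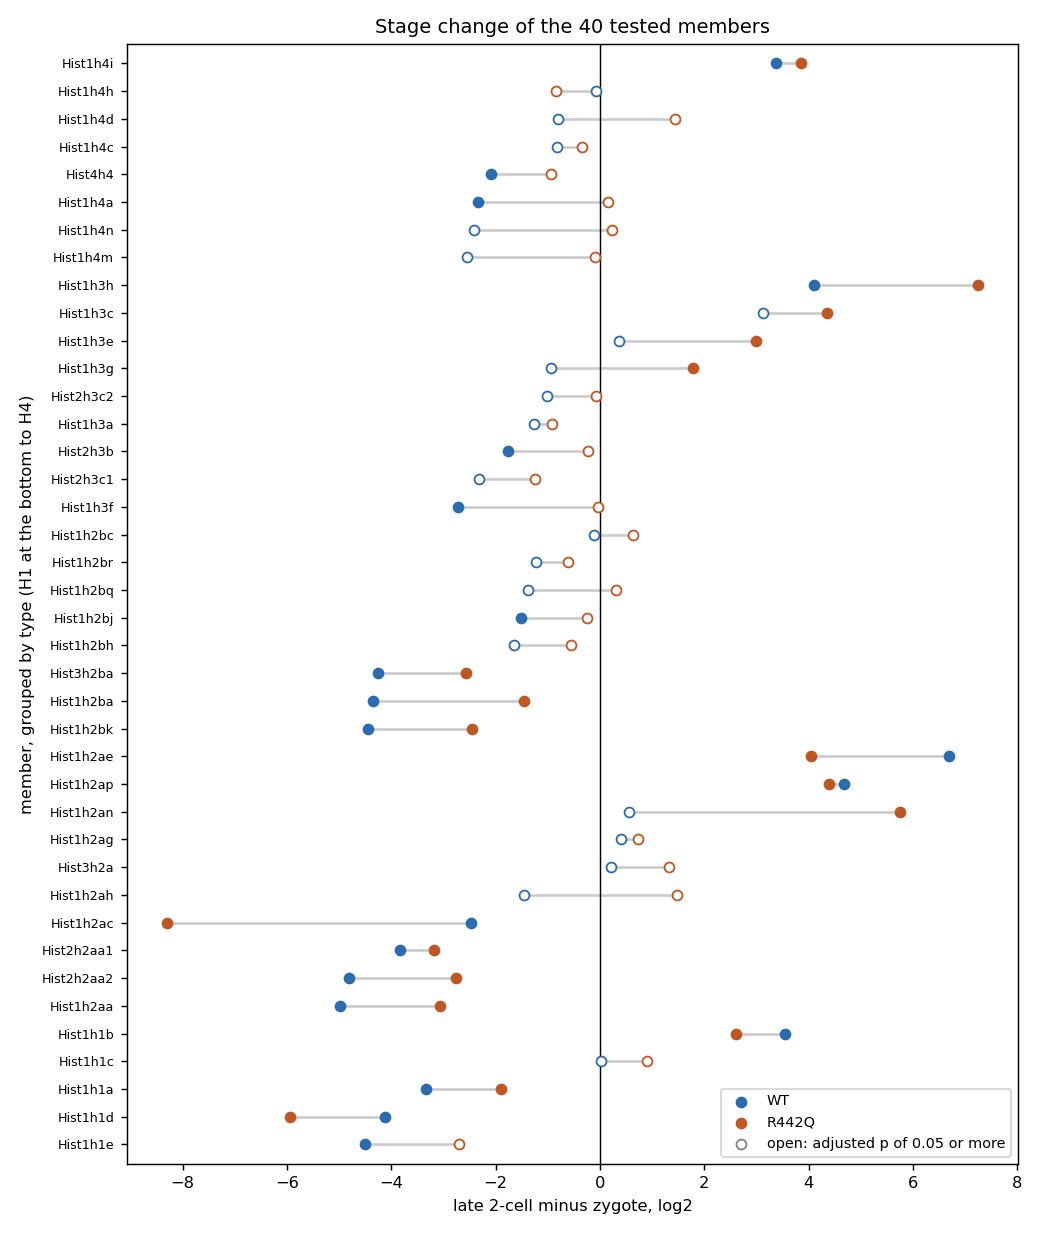
Log2 change from zygote to late 2-cell (x axis) of each of the 40 tested members (y axis), in WT and R442Q embryos (colour), with filled circles for an edgeR adjusted p under 0.05. Falls predominated in WT, and circles of R442Q lay to the right of those of WT in 34 of 40 members. The values of genes at 0 in a whole group (Hist1h2ae in WT, Hist1h1d, Hist1h2ac and Hist1h3h in R442Q) depend on the fit.

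In zygotes the 2 members that differed between the injected mRNAs moved in opposite directions. Hist1h2ap had 9.35, 5.24, 7.49, 10.4 and 5.91 CPM in WT and 12.5 to 22.1 CPM (median 16.4) in the 6 R442Q zygotes. The groups did not overlap, and the log2 difference was 1.27 ± 0.26 (SE, edgeR adjusted p = 0.0042). Hist1h3f (chr13:23544052-23545312, plus strand) was the second H3 gene of zygotes by FPKM and the first by CPM. It had 44.9, 62.6, 46.2, 42.4 and 60.3 CPM in WT and 15.9 to 33.7 CPM (median 22.0) in R442Q. The groups did not overlap either, and the log2 difference was -0.99 ± 0.18 (SE, edgeR adjusted p = 0.0025). In the model of 4 groups, which shares 1 estimate of the spread with late 2-cell embryos, both were lost (edgeR adjusted p = 0.23 and 0.22).

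These were 2 of the 30 members that passed the filter, against 13.2% of all genes tested, which is no more than the background. With limma on log2(FPKM + 1) the count was 6 (1 higher, 5 lower), where 1642 of 11849 genes were called (411 higher, 1231 lower). Hist1h2ba was lower in R442Q without overlap as well, with 9.46, 16.4, 9.38, 9.54 and 16.7 CPM in WT and 4.69 to 9.03 (median 6.52) in R442Q, and missed the threshold (log2 -0.76 ± 0.25 SE, edgeR adjusted p = 0.056). It passed with DESeq2 and with limma on log2(FPKM + 1). Members without overlap thus numbered 1 higher and 2 lower of 30, against 2.54% and 6.84% of all genes tested. Without any filter, the R442Q mean was higher in 24 and lower in 43 of the 67 members above 0, that is higher in 35.8% against 53.8% of all genes above 0.

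The sum over all members was 374.5 to 554.9 CPM in WT and 316.2 to 370.5 in R442Q zygotes, without overlap, but it overlapped under TMM-scaled CPM and FPKM. Of the 5 types, H3 was the one whose zygote groups did not overlap under any of the 3 scales. The H3 sum was 90.2, 97.9, 85.3, 75.8 and 120.5 CPM in WT and 53.9 to 71.5 (median 62.5) in R442Q zygotes. Without Hist1h3f the other 11 H3 genes summed to 33.4 to 60.2 CPM in WT and 34.8 to 45.8 in R442Q, which overlapped, so the separation of the H3 sums rested on that 1 gene. The H2A sum, to which Hist1h2ap belongs, overlapped with a mean of 154.4 CPM (126.3 to 212) in WT and 131.2 (109.1 to 146.2) in R442Q. Its mean was thus lower in R442Q, while that of Hist1h2ap was higher. The sum of H4 did not separate, with 24.6 to 34.2 CPM in WT and 23.7 to 31.1 in R442Q.

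At the late 2-cell stage members tended to lie higher in R442Q, and no single member passed. In edgeR's quasi-likelihood test 0 of 28 tested members were called, against 4.18% of all 13883 genes (1.22% higher and 2.95% lower). No tested member separated the groups either, against 3.67% of all genes with R442Q higher and 8.77% with R442Q lower. At an unadjusted p under 0.05 there were 3 of 28 members, against 21% of all genes. DESeq2 called 1 member, and 1664 of 11166 genes. With limma on log2(FPKM + 1) it was 1 of 39 members, and 652 of 14161 genes. The model of 4 groups called 5 of 40 (4 higher, 1 lower), and 2507 of all 16199 genes. Yet the estimate was above 0 in 27 of the 28, with a median log2 difference of 1.27 beside 0.07 over all genes. The 28 had to pass a filter on counts, so the unfiltered direction is given too: the R442Q mean CPM was higher in 50 and lower in 14 of the 64 members above 0, or 78.1%, against 51.1% of all genes above 0. By type, the R442Q mean was higher in 14 of 18 H2A, 13 of 17 H2B, 10 of 12 H3 and 10 of 12 H4 genes. For H1 it was 3 of 5 genes, near the share of all genes. Members share embryos and sequence, so these are not independent counts. With a trend on length and GC content removed, the median log2 difference of the 28 members was 0.84 and 23 were above 0.

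Values per embryo show the spread behind this. Hist1h3f had 5.23, 6.40, 10.3 and 10.5 CPM in WT and 18.2, 32.1, 34.6, 42.8 and 5.57 in R442Q, where 4 of 5 embryos lay above every WT embryo and embryo 5 lay among them (log2 1.78 ± 0.57 SE, edgeR adjusted p = 0.090). Without R442Q embryo 5 it passed (log2 2.05, edgeR adjusted p = 0.035), and in the model of 4 groups it passed too (edgeR adjusted p = 0.0072). With the length and GC trend removed the log2 difference was 0.89 (edgeR adjusted p = 0.50). Hist2h3b had 5.74, 6.62, 3.39 and 3.16 CPM in WT and 15.0, 13.0, 11.8, 28.1 and 4.10 in R442Q (log2 1.70 ± 0.64 SE, edgeR adjusted p = 0.14). Hist1h2ap had 39.6, 296.1, 52.8 and 417.3 CPM in WT and 567.1, 337.0, 148.7, 377.5 and 568.0 in R442Q, with wide overlap (log2 1.08 ± 0.65 SE, edgeR adjusted p = 0.37).

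The H3 sum separated the groups. It was 18.1, 32.8, 32.7 and 37.4 CPM in WT and 79.9, 97.1, 70.1, 105.0 and 49.8 in R442Q, without overlap, and without overlap too under TMM-scaled CPM and FPKM. Without Hist1h3f it was 12.8 to 26.9 CPM in WT and 35.5 to 64.9 in R442Q, again without overlap. The same held for H2A without Hist1h2ap, with 13.8 to 34.3 CPM in WT and 35.1 to 59.3 in R442Q. H4 ran from 18.4 to 48.7 CPM in WT and from 45.6 to 85.7 in R442Q and overlapped, but did not overlap in FPKM. FPKM summed over all genes was itself larger in R442Q, at 814376 to 976830 against 712234 to 742246 in WT, and its part in the FPKM sums was not tested. The number of genes at an FPKM of 1 or more ran from 11984 to 16211 in R442Q and from 13049 to 14210 in WT.

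**Figure D4:**
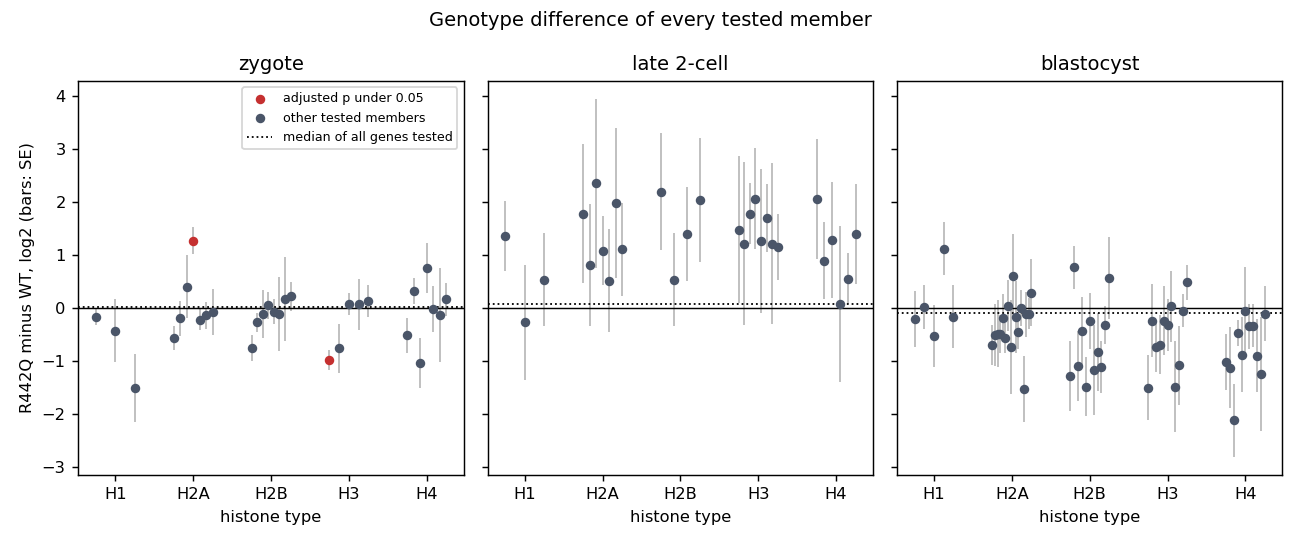
Log2 difference of R442Q minus WT (y axis, error bars 1 SE) of each tested member by histone type (x axis) in the 3 stages, with members past an adjusted p of 0.05 in red and the median of all genes as a dotted line. The 2 red points in zygotes are Hist1h2ap and Hist1h3f, 27 of 28 members lie above 0 at the late 2-cell stage, and 45 of 54 lie below 0 in blastocysts.

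The test of the difference itself, the genotype effect at the late 2-cell stage minus that in zygotes, called 3 of 40 members, against 10.1% of all genes. Of these, 2 were higher and 1 lower, against 3.07% and 7.05% of all genes. It was 2.70 ± 0.55 (SE, edgeR adjusted p = 0.0034) for Hist1h3f and 2.90 ± 0.77 (SE, edgeR adjusted p = 0.019) for Hist1h2ba, which without a filter on low counts just missed (edgeR adjusted p = 0.054). For Hist1h2ba the late 2-cell values were 0.168, 0.290, 0.463 and 1.46 CPM in WT and 2.77, 1.67, 3.86, 4.02 and 1.46 in R442Q. It is therefore a gene lower in R442Q zygotes without overlap and higher in 5 of 5 R442Q late 2-cell embryos than in 3 of 4 WT embryos. In edgeR's tests per stage it passed at neither stage, with a late 2-cell log2 difference of 2.19 ± 1.10 (SE, edgeR adjusted p = 0.27). Its WT late 2-cell values rest on 1.04 to 8.56 counts. For Hist1h2ac the difference was -5.82 ± 1.62 (SE, edgeR adjusted p = 0.027). It was at 0 in all R442Q late 2-cell embryos and in WT embryos 2 and 4, with 3.85 CPM in WT embryo 1, and without WT embryo 1 it did not pass (edgeR adjusted p = 0.11). The estimate was above 0 in 34 of 40 members, with a median of 1.25 beside -0.16 over all genes. Without a filter it was above 0 in 53 of 69, with a median of 1.173 beside -0.228. DESeq2 called 9 members, and 2446 of 15524 genes. In edgeR under DESeq2-type size factors the median of all genes was -0.006. All genes called there split as 707 higher and 917 lower in place of 497 and 1142.

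In blastocysts, where both groups were in inhibitor, limma on log2(FPKM + 1) called 0 of 54 tested members, and 0.00885% of all 11297 genes. At an unadjusted p under 0.05 there were 6 of 54, beside 7.4% of all genes. No tested member separated the groups, against 0.354% of all genes with R442Q higher and 0.062% with R442Q lower. Here the direction was the other way: 45 of 54 estimates were below 0, with a median of -0.45 beside -0.10 over all genes. Without a filter the R442Q mean was lower in 56 of 70 members, including 12 of 13 H4 and 11 of 12 H3 genes, while it was higher in 45.2% of all genes above 0. The smallest p among the named members was that of Hist1h4c, with 14.7 to 75.7 FPKM (median 36.0) in WT and 0 to 26.4 (median 11.6) in R442Q (log2 -2.13 ± 0.69 SE, limma adjusted p = 0.34). Hist1h4d lay 0.48 ± 0.25 (SE) lower on the log2 scale (limma adjusted p = 0.71), and Hist1h2ap differed by -0.01 ± 0.34 (SE, limma adjusted p = 0.999). The groups overlapped in each type's sum. Hist1h2ba was at 0 in 13 of 14 blastocysts, Hist1h2aa in 8 of 14, and Hist1h3f had at most 8.62 FPKM.

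A list of 37 genes that transcribe, process or degrade histone transcripts was read beside the members. In zygotes 4 of 34 tested passed upward and 3 downward, against 6.3% and 6.92% of all genes. The core proteins shared by spliceosomal and U7 particles Snrpd3 (log2 0.72), Snrpg (0.54) and Snrpf (0.42) rose, as did Ccne1, the cyclin E that drives histone transcription in S phase (0.84). Lsm10, a protein particular to the U7 particle that cuts histone transcripts, fell from 51.1 to 113 CPM in WT to 15.7 to 43.7 in R442Q (log2 -1.37, edgeR adjusted p = 0.0023). Cpsf3, the endonuclease of that cut, fell by 0.79 and the cap-binding protein Ncbp2 by 0.49. Slbp did not pass, with 2567 to 3793 CPM in WT and 2406 to 3270 (median 3136) in R442Q zygotes.

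At the late 2-cell stage 1 of 34 passed upward and 1 downward, beside 1.22% and 2.95% of all genes. At an unadjusted p under 0.05 there were 13 of 34, beside 21% of all genes. The median log2 difference of the list was -0.34, beside 0.07. Sympk, the scaffold of the cleavage complex, rose by 1.43 on the log2 scale (edgeR adjusted p = 0.023). Hinfp, a transcription factor of H4 genes, fell from 123 to 200.4 CPM in WT to 15.5 to 65.5 in R442Q (log2 -2.13, edgeR adjusted p = 0.010). From zygote to late 2-cell in WT, 14 of 34 rose and 7 fell, beside 36.2% and 25% of all genes. Slbp fell by 3.30 and Ccne1 rose by 6.18 on the log2 scale, while Npat, the coactivator of the clusters, rose by 2.03. The interaction was past the threshold for 4 of 34, beside 10.1% of all genes, namely Ccne1 (-1.51), Sympk (1.34), Hinfp (-2.12) and Lsm10 (2.35). No gene of the list passed in blastocysts under limma, with 1 of 35 at an unadjusted p under 0.05, beside 7.4% of all genes.

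Of 12 histone genes outside the clusters, whose transcripts carry poly(A) tails as a rule, 10 were tested in zygotes. In each direction 1 passed, beside 6.3% and 6.92% of all genes. H3f3a, 1 of the genes of the replacement histone H3.3, fell in R442Q zygotes by 0.55 and H3f3b rose by 0.29 on the log2 scale. From zygote to late 2-cell in WT, 5 of 11 rose and 2 fell, beside 36.2% and 25% of all genes. H2afz, which encodes the variant H2A.Z, rose by 4.91 on the log2 scale, whereas the oocyte linker histone H1foo fell by 5.40 and H2afy by 3.02. At the late 2-cell stage none of 10 passed under edgeR, beside 4.18% of all genes. At an unadjusted p under 0.05 there were 3 of 10, beside 21% of all genes, and the median log2 difference was 0.83, beside 0.07. H3f3a is the 1 gene of 11 in this list past the interaction test (1.61, edgeR adjusted p = 0.0049), the same sign as Hist1h3f and Hist1h2ba.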

How the data were processed

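Single-embryo SMART-seq2 cDNA was fragmented with Tn5 and sequenced on a HiSeq X-10, per the labels' protocols. The authors deposited estimated counts per gene for zygotes and late 2-cell embryos and FPKM for all stages. RSEM and mm10 are named in the submitters' processing notes. The aligner, annotation and use of strand are not given in the sources used here.

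Counts were rounded and tested with edgeR 4.0.16 (R 4.3.3; filterByExpr, minimum count 10, TMM, quasi-likelihood), per stage and in a model of 4 groups. FPKM of blastocysts was tested with limma 3.58.1, with a trend, on log2(FPKM + 1), for genes at 1 or more in at least 7 of 14 embryos. Fold changes there are on the log2(FPKM + 1) scale. P-values were adjusted over all genes (Benjamini-Hochberg, 0.05). DESeq2 1.42.0 was an alternative. Scripts were tested on simulated data. No 2 libraries were identical.

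The members, gene lists and tests were chosen with earlier results of these data known. Members named with values were the highest by FPKM per type and stage, those called between genotypes or in the interaction (at most 6 per direction), and the 3 largest rises and falls in WT with at least 10 CPM. Hist1h2ba in zygotes, Hist1h2ae and stage changes of other members were named, and the H3 sum without Hist1h3f was added, after the values were seen. Hairpins and lengths come from GENCODE M21, promoters from RefSeq on GRCm38.p6. Of the symbols, 98.4% (blastocysts 92.1%) were in GENCODE M21.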

Additional observations from a re-analysis of the deposited data

Results flagged for a closer look

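The genotype effect differed between the late 2-cell stage and zygotes, by the edgeR test of the difference, for Hist1h3f (2.70 on the log2 scale), Hist1h2ba (2.90) and Hist1h2ac (-5.82). The size for Hist1h2ac depends on the fit, since the gene was at 0 in all 5 R442Q late 2-cell embryos, and its call was lost without late 2-cell WT embryo 1 (edgeR adjusted p = 0.11). A sample lay far from the rest of its group in 8 of 118 groups examined, where chance flags about 1 in 20, or 5.9. WT late 2-cell embryo 2 had 2.41 CPM of Hist1h4c, below 5.39 to 5.69 in the others. WT blastocyst 7 had an H2A sum of 10574 FPKM (others 4199 to 6665) and 8.62 FPKM of Hist1h3f (others 0 to 2.51). WT blastocyst 2 had 94.4 FPKM of Hist1h2bc (others 14.7 to 47.3), and WT blastocyst 4 had 75.7 FPKM of Hist1h4c (others 14.7 to 40.6). R442Q blastocyst 3 had 8.55 FPKM of Hist1h2aa and 2.23 FPKM of Hist1h2ba, where the other 6 R442Q blastocysts were at 0 for both members of this head-to-head pair. R442Q blastocyst 4 had 11.28 FPKM of Hist1h2ac (others 0 to 4.81).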

How the results depend on the processing

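Counts of members called were within 1.5 times the main count in 123 settings, and 24 ratios of type sums between genotypes kept within the spread of embryos. The zygote count of 2 became 6 (1 higher, 5 lower) with limma on log2(FPKM + 1) and 0 in the model of 4 groups, which called 270 of 16199 genes. The late 2-cell count of 0 became 1 with DESeq2, 1 with limma and 5 (4 higher, 1 lower) in the model of 4 groups. The interaction count of 3 became 9 with DESeq2, which called 2446 of 15524 genes. Leaving out 1 embryo gave 2 to 3 calls in zygotes, 0 to 1 at the late 2-cell stage (1 without R442Q embryo 5), 0 in blastocysts, 18 to 22 and 15 to 20 for the stage change in WT and R442Q, and 2 to 6 for the interaction (6 without late 2-cell R442Q embryo 2, 5 without embryo 3 or 5). Of the fold changes of named genes, 834 kept direction and side of the threshold, 39 lost and 8 gained the call, and 6 changed sign. Those were of values near 0 and not called: Hist1h2ac in zygotes was 0 without WT embryo 4 (-0.32 to 0 over embryos left out), and Hist1h3f between stages in R442Q was 0.10 with DESeq2 and with DESeq2-type size factors, and 0.03, 0.28 and 0.05 without late 2-cell R442Q embryo 1 or 5 or zygote R442Q embryo 4 (-0.27 to 0.28 over embryos left out). The cause of these changes was not tested. Embryos with the same replicate number in their titles did not deviate together (r of -0.168 to 0.206). The submitters' own embryo numbers differ from these for some zygotes and late 2-cell embryos, and pairing by those was not tested. The replicate block gave 2, 0, 0, 18, 15 and 3 calls for zygotes, late 2-cell embryos, blastocysts, both stage changes and the interaction. Over all late 2-cell genes, 580 calls became 58 with the block, 168 with the length and GC trend removed, 889 unfiltered, 1664 with DESeq2 and 2507 in the model of 4 groups. Low counts limit the WT late 2-cell values of Hist1h2ba (1.04 to 8.56 counts) and Hist1h2aa (3 to 4 counts), near the floor of 3 counts, and shared sequence limits single members of H2A and H3.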
